A study of Mus musculus with 10 samples.

Results

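Renal stroma regulators and Pdgf receptors were followed in isolated metanephric mesenchyme of the E11.5 mouse kidney. The group holds 9 genes, taken by name: the transcription factors Foxd1, Meis1, Meis2 and Tcf21, the receptors Pdgfra and Pdgfrb, and the secreted or matrix proteins Ntn4, Tnc and Dcn. Every probe set annotated to exactly 1 of these symbols was used, which gave 21 of the 45037 probe sets tested, and all 9 genes were measured among the 18193 genes on the array. The study compared 5 pools of Wnt9b-/- mesenchyme with 5 pools of Wnt9b+/+ mesenchyme, the controls. All embryos came from Wnt9b+/- intercrosses, no other allele or agent is named, and each pool joined 25 to 30 mesenchymes on 1 Affymetrix Mouse Genome 430 2.0 array. The samples' genotype labels call the controls Wnt9b+/+, whereas the design text of the series calls them heterozygous. Genotypes below are those of the sample labels, as mutant (Wnt9b-/-) and wild type (Wnt9b+/+).

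The metanephric mesenchyme holds nephron progenitors, which cap the tips of the ureteric bud, and around them stromal progenitors that express the forkhead factor Foxd1. Foxd1-lineage cells give rise to the cortical interstitium, pericytes and mesangial cells, and they send signals that help nephron progenitors to differentiate. Wnt9b is a ligand secreted by the ureteric bud that acts on the neighbouring mesenchyme. Platelet-derived growth factor receptors are tyrosine kinases: Pdgfra binds A and C chains as well as B chains, while Pdgfrb binds B and D chains and is known for the recruitment of pericytes and mesangial cells.

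Values were probe-set intensities on a linear scale, called signals, and statistics used log2(signal + 1), called log2 signal. Arrays correlated pairwise at 0.915 to 0.954 over probe sets. A control for 18S ribosomal RNA split the arrays in 2, since 4 arrays read 1975 to 2587 and the other 6 read 92.4 to 322. The 4 high-18S arrays were mutant replicates 4 and 5 and wild-type replicates 2 and 5. Markers of the labelled tissue were measured, with Six2, the regulator of progenitor renewal, at a mean log2 signal of 9.79 in the mutant and 10.45 in wild type. Wnt9b itself was at 6.23 ± 0.54 in mutant and 6.47 ± 0.14 in wild-type pools (SD, n = 5 each). The protocol separated the mesenchyme from the bud that makes Wnt9b. Bud genes such as Epcam (118 to 659 in mutant and 267 to 445 in wild-type pools) were nevertheless measured. The sources used here do not place the Wnt9b probe sets relative to the deletion, so their values check nothing about the labels.

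None of the 9 stromal genes was called in the mutant, where called means an adjusted p under 0.05 in limma's moderated test with Benjamini-Hochberg adjustment over all genes. The background was 0.0055% of genes. Adjusted p ran from 0.691 to 0.999 over the 9 genes. Of these, 7 were higher and 2 lower in the mutant, with a median difference of 0.18 on the log2 scale, against 0.02 over all genes, of which 54.9% were higher. One gene, Pdgfra, had an unadjusted p under 0.05, that is 1 of 9, where the background was 5.49%. Pdgfra was also the single member whose mutant and wild-type arrays did not overlap, with the mutant above. Of all genes, 0.654% were separated with the mutant above and 0.555% with the mutant below. Among the 21 probe sets, 17 were higher and 4 lower in the mutant, none was called against a background of 0.00444%, and 1 had separate groups with the mutant above against a background of 0.464%. Several of these probe sets report the same gene and are not independent of each other. In bulk tissue fewer cells of a type and less RNA per cell cannot be told apart, and because each array was scaled to a common mean, signals are relative to the rest of the array.

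**Figure D1:**
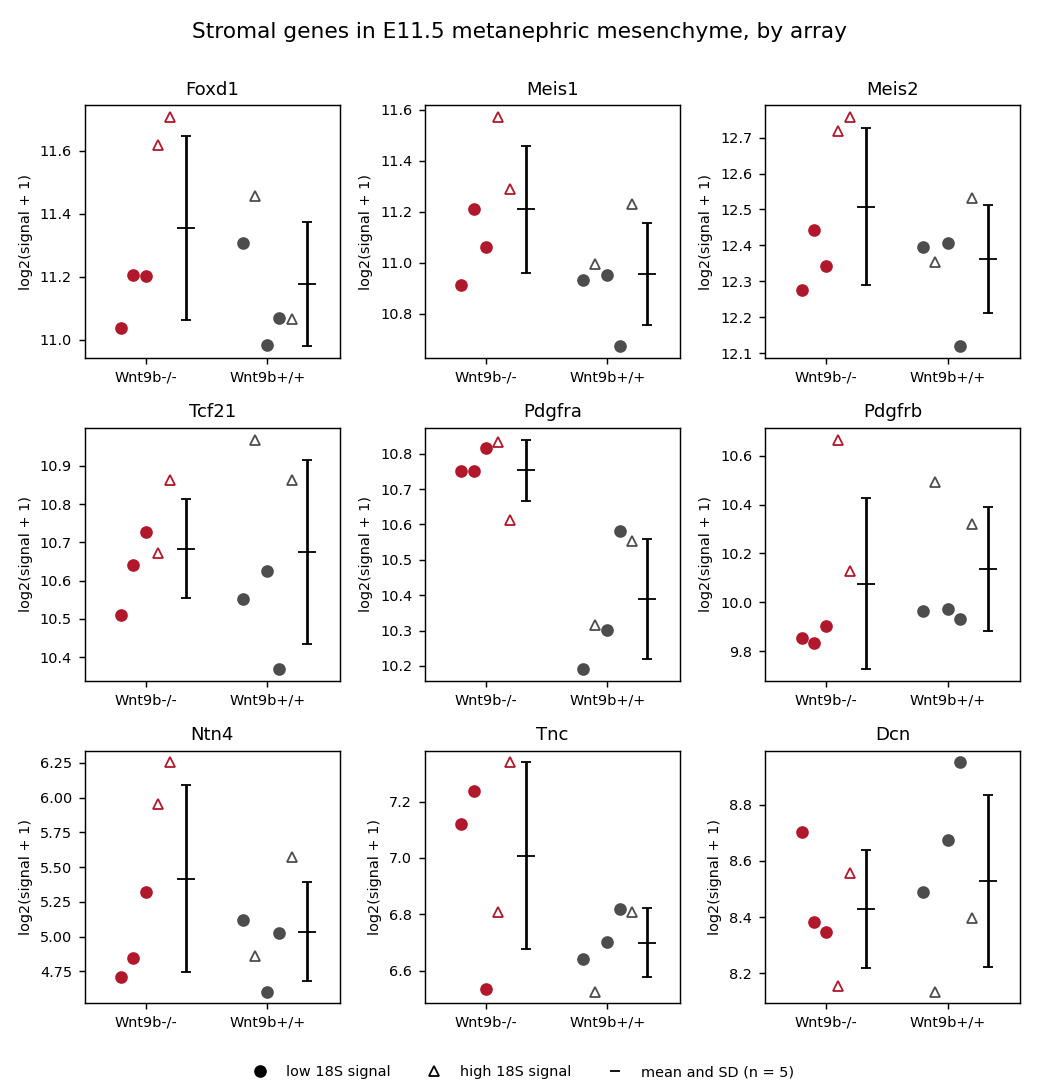
Log2 signal of the brightest probe set of each of the 9 genes on the 10 arrays, mutant left of wild type, with open triangles for the 4 arrays with high 18S signal, filled circles for the other 6, and bars for mean and SD (n = 5). Pdgfra is the panel in which the 2 groups do not overlap, and in the Pdgfrb panel the triangles lie above all circles.

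Pdgfra, the receptor for Pdgf A chains that marks many embryonic mesenchymes, had signals of 1722, 1722, 1803, 1824 and 1566 in mutant replicates 1 to 5. In wild-type replicates 1 to 5 the signals were 1168, 1273, 1262, 1530 and 1500. All mutant pools lay above all wild-type pools, though the lowest mutant and the highest wild-type value were close. The log2 signal averaged 10.75 ± 0.09 in the mutant and 10.39 ± 0.17 in wild type (SD, n = 5 each), a difference of 0.36 (SE 0.11, 95% interval 0.12 to 0.61, limma adjusted p = 0.691), or 1.29-fold. Among high-18S arrays alone it was 0.29, and among low-18S arrays alone 0.41. Averaging the 3 probe sets of Pdgfra gave 0.18 (SE 0.13). The other 2 probe sets of Pdgfra were dimmer and did not show the separation. Probe set 1438946_at ranged from 234 to 435 in mutant pools and 211 to 315 in wild-type pools (difference 0.17, SE 0.20), and probe set 1421916_at from 161 to 242 and from 162 to 293 in the same order (difference 0.01, SE 0.20).

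The 250 bases upstream of the annotated start of Pdgfra are shown because it was the member with separate groups (RefSeq, GRCm38.p6, plus strand, chr5:75152001-75152250). Capitals mark the E-box, CANNTG, the 6-letter site read by basic helix-loop-helix factors such as Tcf21 and Twist1.
Pdgfra: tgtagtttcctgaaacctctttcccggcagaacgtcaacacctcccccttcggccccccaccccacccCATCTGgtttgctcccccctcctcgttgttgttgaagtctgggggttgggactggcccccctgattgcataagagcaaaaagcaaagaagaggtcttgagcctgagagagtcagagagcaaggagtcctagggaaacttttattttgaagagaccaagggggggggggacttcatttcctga
The E-box starts 182 bases before the annotated start. An E-box stood in 66.2% of the 32851 promoters of the same length and in 5 of the 8 windows available for 7 members, Tnc having 2 windows. The other letters searched, on both strands, were CTTTGAT for TCF/LEF factors, which carry canonical Wnt signals, GTAAACA for forkhead factors and TGACAG for Meis factors. No member's window held the TCF/LEF or the forkhead letters, which were found in 3.21% and 3.17% of all promoters. These are matches of letters in 1 window and say nothing of binding.

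Pdgfrb, the receptor of pericyte and mesangial precursors, had signals of 924, 912, 956, 1624 and 1117 in mutant replicates 1 to 5. Wild-type replicates 1 to 5 gave 998, 1438, 1004, 976 and 1278. The groups overlapped throughout, at 10.08 ± 0.35 in the mutant and 10.14 ± 0.25 in wild type (SD, n = 5 each), and the interval of the difference, -0.49 to 0.37, includes both a fall and a rise of about the size seen for Pdgfra. The dimmer probe set 1417148_at ranged from 111 to 258 in mutant and 106 to 207 in wild-type pools, with a difference of the other sign, 0.21 (SE 0.27). The direction of Pdgfrb is therefore not settled by these arrays.

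Of the 4 Pdgf ligand genes 2 were higher and 2 lower in the mutant, and none was called. Pdgfa, which encodes the A chain, had signals of 283, 190, 144, 219 and 248 in mutant replicates 1 to 5, against 312, 339, 301, 302 and 338 in wild-type replicates 1 to 5. All mutant pools lay below all wild-type pools, as for 0.555% of all genes, with a difference of -0.59 (SE 0.17, limma adjusted p = 0.672), -0.54 within the high-18S and -0.62 within the low-18S arrays. A second Pdgfa probe set gave -0.16 (SE 0.26), with overlapping groups. Pdgfc, the C chain, ranged from 1778 to 2681 in the mutant and 2405 to 3380 in wild type, a difference of -0.29 (SE 0.15). Pdgfd, the D chain, ranged from 71.1 to 113 and 40.7 to 75.1 in the same order, a difference of 0.59 (SE 0.20), and its other 2 probe sets gave 0.20 and -0.19. Pdgfb, the B chain, differed by 0.09 (SE 0.22).

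**Figure D2:**
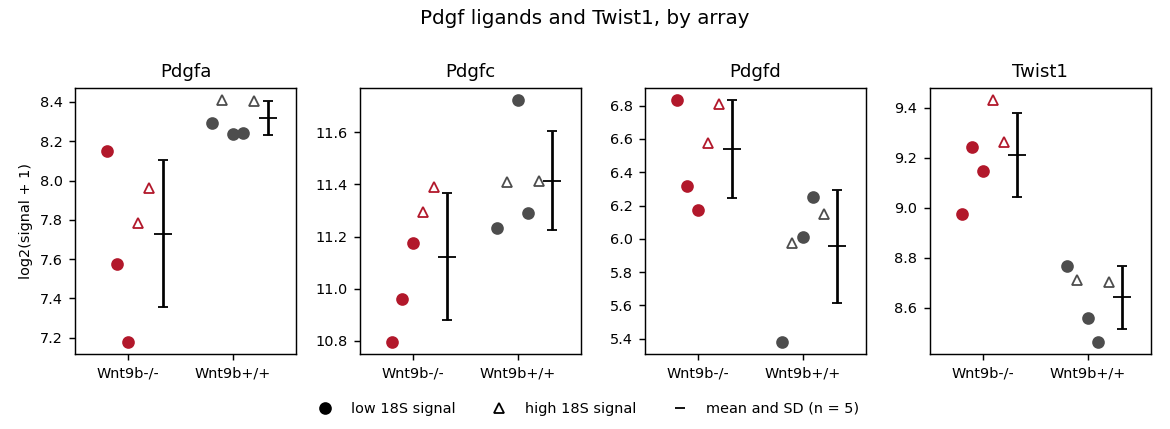
Log2 signal of the brightest probe set of Pdgfa, Pdgfc, Pdgfd and Twist1 on each array, mutant left of wild type, with symbols as in the plot of the 9 genes and bars for mean and SD (n = 5). Pdgfa lies lower (difference -0.59) and Twist1 higher (0.57) in all mutant pools than in any wild-type pool, while Pdgfc and Pdgfd overlap between groups.

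Foxd1, the forkhead factor that defines the stromal progenitors, had signals of 2102, 2362, 2354, 3143 and 3344 in mutant replicates 1 to 5. In wild-type replicates 1 to 5 it was at 2531, 2808, 2026, 2147 and 2142. The 2 highest mutant pools were the high-18S ones, and the other 3 lay inside the wild-type range. The mean log2 signal was 11.35 ± 0.29 in the mutant and 11.18 ± 0.20 in wild type (SD, n = 5 each), a difference of 0.18 (SE 0.16, 95% interval -0.19 to 0.54, limma adjusted p = 0.988). Among high-18S arrays alone it was 0.40, and among low-18S arrays alone 0.03. Foxd1 has 1 probe set here, so no second one bears on these values.

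The 250 bases upstream of the annotated start of Foxd1 are shown because Foxd1 names the lineage and its window was 1 of 2, with that of Ntn4, that held the Meis letters TGACAG, which 15.9% of all promoters held (RefSeq, GRCm38.p6, plus strand, chr13:98353995-98354244). Capitals mark an E-box and the Meis letters, which share 2 bases.
Foxd1: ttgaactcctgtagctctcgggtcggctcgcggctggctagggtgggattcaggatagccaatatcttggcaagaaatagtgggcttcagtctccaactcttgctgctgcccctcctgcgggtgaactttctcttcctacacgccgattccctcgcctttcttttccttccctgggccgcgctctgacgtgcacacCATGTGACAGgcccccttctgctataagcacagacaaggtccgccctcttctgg
The E-box starts 54 and the Meis letters 50 bases before the annotated start.

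Meis1 and Meis2 are homeobox factors of the TALE class, and Meis1 is widely used as a marker of the renal stroma. Meis1 had signals of 1925, 2371, 2137, 3043 and 2502 in mutant replicates 1 to 5, and of 1953, 2038, 1979, 1630 and 2401 in wild-type replicates 1 to 5. The groups overlapped, the difference was 0.25 (SE 0.15, 95% interval -0.09 to 0.59, limma adjusted p = 0.947), and it was 0.32 within the high-18S and 0.21 within the low-18S arrays. The other 2 Meis1 probe sets were also higher in the mutant, 1443260_at by 0.36 (SE 0.20) and the dim 1459423_at by 0.20 (SE 0.13). Meis2 had signals of 4957 to 6923 in the mutant and 4448 to 5926 in wild type on its brightest probe set, a difference of 0.15 (SE 0.13, limma adjusted p = 0.988), 0.29 within the high-18S and 0.05 within the low-18S arrays. Its other 3 probe sets differed by 0.16, 0.22 and 0.48 (SE 0.15, 0.25 and 0.28). All 7 probe sets of the 2 genes were thus higher in the mutant, and all 7 overlapped between groups. Whether probe sets of the 2 genes share bases was not tested, so the 7 cannot be read as separate evidence.

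Tcf21, a basic helix-loop-helix factor needed in the kidney mesenchyme and later in podocytes, was at the same mean in both groups. Signals were 1456, 1595, 1694, 1631 and 1863 in mutant replicates 1 to 5, and 1500, 2003, 1577, 1321 and 1861 in wild-type replicates 1 to 5. The difference was 0.01 (SE 0.14), with a 95% interval of -0.30 to 0.31, and a second, dim probe set gave 0.05 (SE 0.16). A change of more than 1.24-fold in either direction lies outside that interval.

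**Figure D3:**
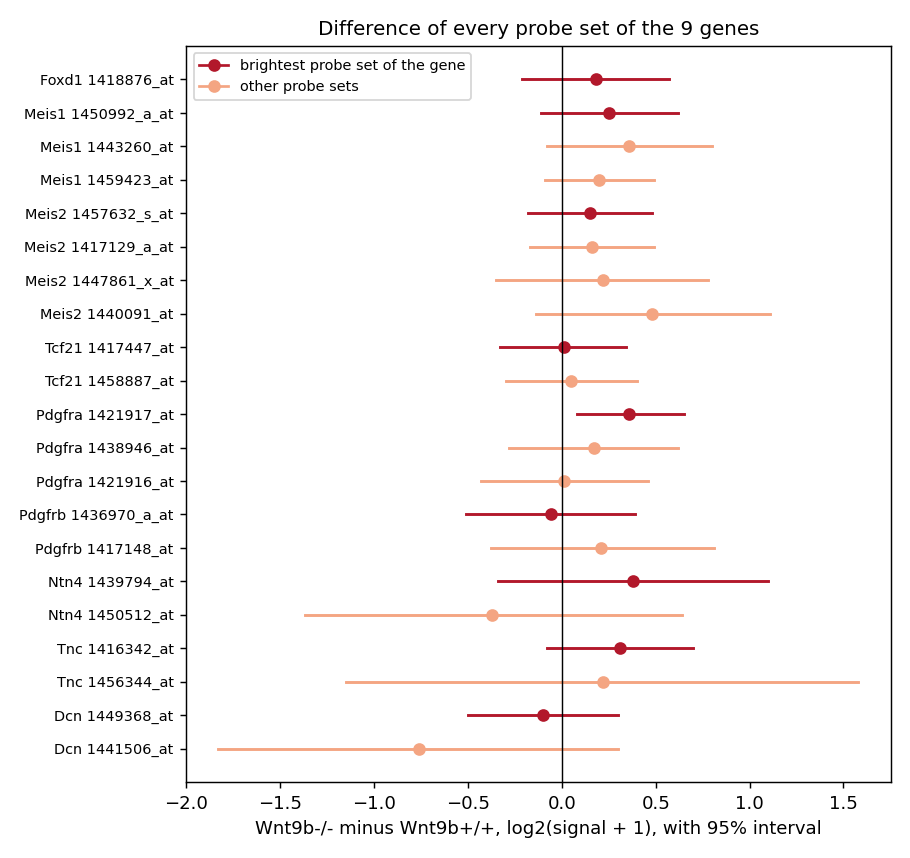
Difference of mutant minus wild type on the log2 scale for each of the 21 probe sets with its 95% interval, from limma over all probe sets, dark for the brightest probe set of a gene and pale for the others. The interval of Pdgfra 1421917_at, 0.08 to 0.65, is the one that does not include 0, and the intervals are widest for the dim second probe sets of Ntn4, Tnc and Dcn.

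Among the secreted proteins, Tnc, the matrix glycoprotein tenascin C, had signals of 138, 150, 91.8, 111 and 161 in mutant replicates 1 to 5, against 98.7, 91.1, 103, 112 and 111 in wild-type replicates 1 to 5. In the mutant 3 pools lay above all wild-type pools and 2 did not, so the groups overlapped. The difference was 0.31 (SE 0.16, 95% interval -0.06 to 0.68, limma adjusted p = 0.941), 0.41 within the high-18S and 0.24 within the low-18S arrays. Dcn, the small proteoglycan decorin of fibroblast matrix, ranged from 284 to 416 in the mutant and 280 to 494 in wild type, a difference of -0.10 (SE 0.17). Its second probe set, at signals of 7.22 to 47 in the mutant and 19.5 to 51.4 in wild type, gave -0.76 (SE 0.48). Ntn4, netrin 4, a secreted relative of laminins, was dim, at 25.2, 27.7, 39, 61 and 75.3 in mutant replicates 1 to 5 and at 33.7, 28.1, 23.3, 31.5 and 46.6 in wild-type replicates 1 to 5. Its difference was 0.38 (SE 0.32), with 0.89 among high-18S arrays and 0.04 among low-18S arrays, and averaging its 2 probe sets left 0.01 (SE 0.33). It was 0.17 without mutant replicate 5 and 0.56 without mutant replicate 1. The second Ntn4 probe set stayed at or under a signal of 8.6 on all arrays.

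Most of the 9 genes were brighter on the arrays with high 18S signal. In a fit with genotype and 18S set, 8 of the 9 genes were higher in the high-18S arrays, Dcn being the other one (-0.28, SE 0.15, and 1.04 on its second probe set), with a median of 0.27 against -0.05 over all genes. Over all genes, 8066 of 18193 were higher in the high-18S arrays. Other lists were split. Of the 14 further stromal and mesenchymal transcription factors, 13 were higher in the high-18S arrays (median 0.26). Of the 11 nephron progenitor genes 8 were (median 0.12), 3 of them at an unadjusted limma p under 0.05. Stromal matrix genes were higher in 3 of 14 (median -0.07), and netrins, tenascins and netrin receptors in 3 of 10 (median -0.21). Mural and smooth muscle genes were higher in 3 of 8 (median -0.02), and stromal signals to nephron progenitors in 4 of 9 (median -0.00). None of the 9 genes was called against a background of 0.0055%, and 6 had an unadjusted limma p under 0.05 with the high set above, where the background was 6.06%. That count was 3 with the mean of each gene's probe sets and between 2 and 5 on leaving out single arrays, with 2 without mutant replicate 1, mutant replicate 5 or wild-type replicate 4 and 3 without mutant replicate 4 or wild-type replicate 5. Pdgfrb had signals of 1117 to 1624 on the 4 high-18S arrays and 912 to 1004 on the 6 others, without overlap, as for 2.29% of all genes. Its difference between the sets was 0.49 (SE 0.12, limma adjusted p = 0.197), but its second probe set gave -0.38 (SE 0.25). Foxd1 differed between the sets by 0.33 (SE 0.13), Meis1 by 0.31 (SE 0.12), Meis2 by 0.26 (SE 0.11), Tcf21 by 0.27 (SE 0.11) and Ntn4 by 0.73 (SE 0.24). Pdgfra and Tnc differed by 0.01 (SE 0.11) and 0.03 (SE 0.17). The summed signal of the 9 genes was 15198 to 18456 on the high-18S arrays and 12690 to 15039 on the others. The ratio of the 3' to the 5' Gapdh control, a sign of RNA length, was 0.953 to 1.05 on the high-18S arrays and 0.755 to 1.00 on the others. These ranges overlapped through wild-type replicate 3 alone, at 1.00, the other low-18S arrays being at 0.755 to 0.835. Those of the same ratio for actin also overlapped, at 1.40 to 1.63 on the high-18S arrays and 1.31 to 1.92 on the others. The part of RNA quality in this pattern was not tested. The interaction of genotype with 18S set was called for 0 genes, with 630 genes at an unadjusted limma p under 0.05.

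**Figure D4:**
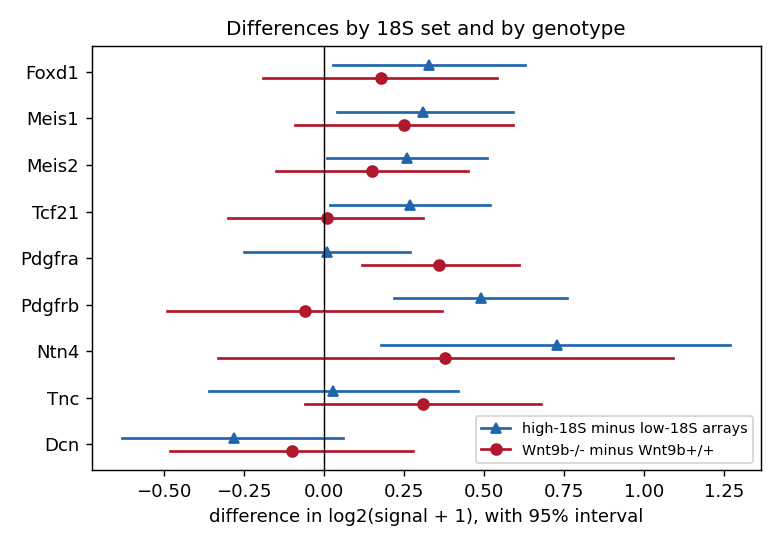
Difference on the log2 scale with its 95% interval for each of the 9 genes, as triangles for high-18S minus low-18S arrays (4 against 6) and as circles for mutant minus wild type (5 against 5). Foxd1, Meis1, Meis2, Tcf21, Pdgfrb and Ntn4 have triangle intervals above 0, whereas Pdgfra is the gene with the circle interval above 0.

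Other genes of the stroma were read from fixed lists, and none of their members was called. Of 14 further transcription factors of stroma and other mesenchymes, 10 were higher and 4 lower in the mutant (median 0.18), and 3 had an unadjusted limma p under 0.05, all higher. Twist1, a basic helix-loop-helix factor of mesenchyme, had signals of 502, 605, 566, 689 and 613 in mutant replicates 1 to 5 and of 435, 418, 376, 352 and 416 in wild-type replicates 1 to 5. Its groups did not overlap, with the mutant above as for 0.654% of all genes, and the difference was 0.57 (SE 0.12, limma adjusted p = 0.403), 0.64 within the high-18S and 0.53 within the low-18S arrays. Tbx18, a T-box factor of the ureteral mesenchyme, differed by 0.46 (SE 0.16), while Nr2f2 and Ebf2 were lower by value, at -0.53 (SE 0.36) and -0.34 (SE 0.22). Of the TALE partners of Meis, 5 of 5 measured were higher by small amounts (median 0.10), with Meis3 at 0.29 (SE 0.17) and Pknox2 at 0.26 (SE 0.11). Meis3 was at 0.16 without mutant replicate 2, and at 0.11 without both mutant replicate 2 and wild-type replicate 3. Of 14 matrix genes 11 were higher (median 0.09), with Postn, which encodes periostin, at 0.50 (SE 0.17) and Col5a1 at 0.43 (SE 0.22). The bright collagen genes Col1a1, Col1a2 and Col3a1 were at 0.14, 0.05 and 0.08. Col6a3, Ogn and Lum were lower, at -0.12 (SE 0.20), -0.09 (SE 0.53) and -0.03 (SE 0.14).

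Genes listed as stromal signals to nephron progenitors were split, with 4 of 9 higher in the mutant and a median of -0.03. The list also holds receptors of retinoic acid, Rara (-0.07, SE 0.43) and Rarb (-0.04, SE 0.11), which are not themselves signals. Fat4, the protocadherin made by the stroma, differed by 0.35 (SE 0.27), Penk, which encodes a neuropeptide precursor, by 0.22 (SE 0.19), and Aldh1a2, which makes retinoic acid, by -0.05 (SE 0.22). Fat4 was at 0.16 without mutant replicate 4 and Penk at 0.09 without mutant replicate 3. Among netrins, tenascins and netrin receptors 7 of 10 were higher (median 0.06). Ntn1, the canonical netrin, was at -0.52 (SE 0.17) and Ntng1, a membrane-anchored netrin, at 0.36 (SE 0.15). Mural and smooth muscle genes were higher in 6 of 8 (median 0.22), with the pericyte gene Rgs5 at 0.34 (SE 0.15) and the receptor Notch3 at 0.36 (SE 0.20), and Acta2, smooth muscle actin, at -0.37 (SE 0.39).

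The nephron progenitor list had the lowest median of the 14 lists, and the farthest from 0, with 0 of 11 measured genes higher and a median of -0.73. None of the 11 was called, and 9 had an unadjusted limma p under 0.05, against 5.49% of all genes in either direction. With an intensity trend and robust moderation together, 10 of all genes were called. Uncx and Itga8 were among them (limma adjusted p = 0.031 and 0.0499). Without the dimmest 40% of genes 6 genes were called, Uncx among them (limma adjusted p = 0.0451). Uncx, a homeobox factor, was at -1.28 (SE 0.22) and Itga8, an integrin of the mesenchyme, at -0.77 (SE 0.15). The summed signal of the 11 progenitor genes was 4251 to 8079 in the mutant and 9180 to 11124 in wild type, without overlap. That of the 9 stromal genes was 13665 to 18456 in the mutant and 12690 to 15601 in wild type, with overlap. Both lists were chosen with earlier results of these data known, so the low progenitor median and this contrast carry no test. 

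**Figure D5:**
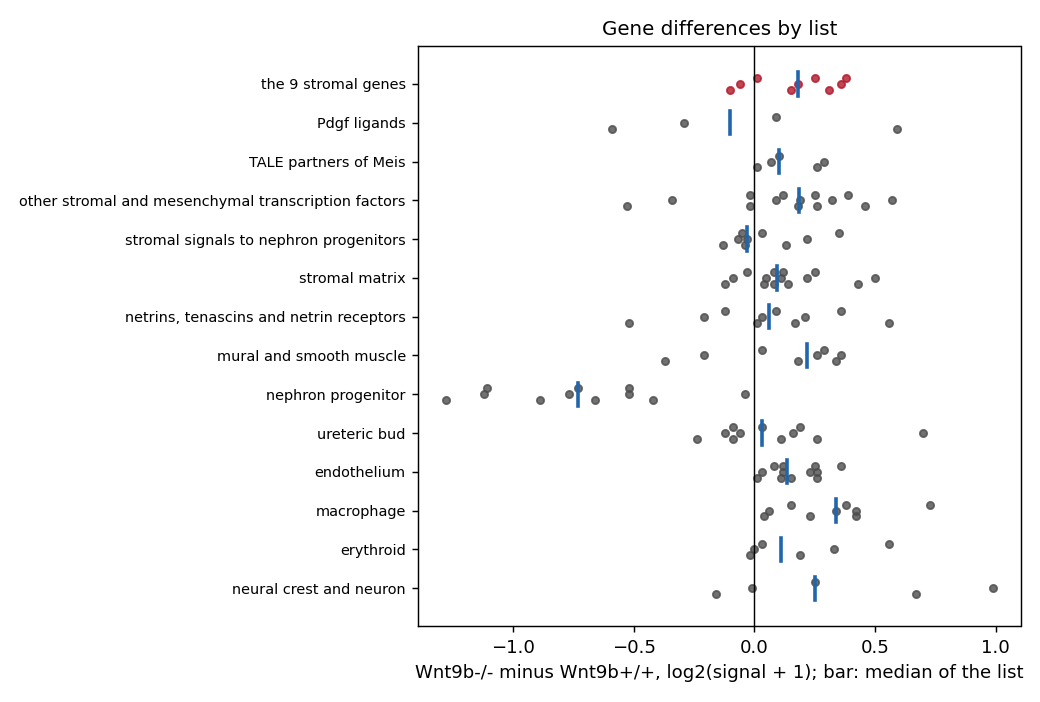
Difference of mutant minus wild type on the log2 scale for each measured gene of the 14 lists, with a blue bar at the median of each list. The 9 stromal genes lie between -0.10 and 0.38, and the nephron progenitor genes lie at or below -0.04.

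Markers of other cell types were set beside the stromal genes, and no marker had a signal of 0 on all arrays. Endothelial genes were higher in 12 of 12 (median 0.14), with summed signals of 3845 to 5262 in the mutant and 3615 to 4807 in wild type. Macrophage genes were higher in 9 of 9 (median 0.34, C1qa, a complement gene, at 0.73 with SE 0.27), with sums of 1299 to 2727 in the mutant and 1392 to 2019 in wild type. Ureteric bud genes were higher in 6 of 11 (median 0.03) and their sums overlapped, at 1245 to 3642 in the mutant and 1740 to 3011 in wild type. Erythroid genes were higher in 4 of 6 (median 0.11), and neural crest and neuron genes in 3 of 5 (median 0.25). In the latter list the neuronal gene Stmn2 was at 0.67 (SE 0.19). The crest gene Foxd3, dim at signals of 12.6 to 63.4, was at 0.99 (SE 0.32). Tubb3 was at 0.25 (SE 0.23), Sox10 at -0.01 (SE 0.47) and Elavl4 at -0.16 (SE 0.22). The sums of this list were 590 to 920 in the mutant and 463 to 670 in wild type. The part of these cell types in the Pdgfra difference was not tested.

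Over the 10 arrays, the genes whose log2 signal followed Foxd1 most closely were Col1a1 (Pearson r = 0.97), Sumf1 (0.94) and Purg (0.93), out of 9280 genes with a mean log2 signal of at least 7. For Pdgfra they were Spsb3 (0.96), Rab8b (0.94) and Col9a1 (0.91). These were picked as the highest of many values and the arrays share 18S sets, so they describe these arrays and carry no test. Spearman's rho was 0.90 for Col1a1, 0.81 for Sumf1 and 0.89 for Purg, and 0.88 for Spsb3, 0.89 for Rab8b and 0.85 for Col9a1. Without the 2 arrays farthest from the median of Foxd1, r was 0.91 for Col1a1 but 0.79 for Sumf1 and 0.77 for Purg. Without the 2 farthest from the median of Pdgfra, it was 0.95 for Spsb3, 0.90 for Rab8b and 0.84 for Col9a1. Within the 9 genes, Foxd1 was closest to Ntn4 (0.74) and Meis2 (0.72) and had r = 0.11 with Pdgfra.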

How the data were processed

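Intensities were analysed from 10 arrays, 5 per genotype. Per the labels' protocols, mesenchyme was freed from the ureteric bud with trypsin and pancreatin, Trizol was used for extraction, and cRNA carrying biotin came from 1 ug of total RNA a pool. The authors deposited 1 linear intensity per probe set and array. The probe summary method and software are not given in the sources used here. Without its top and bottom 2% of values every array had a mean of 250, so arrays had been scaled before deposit, and no further normalization was applied. Control probe sets, 64 of 45101, were left out.

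Probe sets were named through the platform annotation, and 34945 had 1 gene symbol, 932 several and 9160 none here. Gene identifiers of 34741 were matched to RefSeq. The probe set with the highest mean stood for its gene. Fits used limma 3.58.1 in R 4.3.3 (lmFit, eBayes, two-sided, pseudocount 1), over all genes or all probe sets, with Benjamini-Hochberg adjustment, and the fitting code was tested on simulated data. The 5 pools of a genotype are distinct per the labels, but litters are not given. Replicate numbers follow sample order and pair nothing. The number of arrays limits the precision.

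The members, the lists, the tests and the rule for named genes were chosen with earlier results of these data known. The rule named the 9 members with every probe set, Wnt9b, the 2 genes with the smallest p of each other list, and the 3 genes most correlated with Foxd1 and with Pdgfra. Other named genes complete a family or list, or were chosen after their values were seen. Alternatives were other summaries, filters, normalizations, pseudocounts, moderation and weights, blocks for 18S set and title wording, and leaving out arrays. The count of higher members and the comparison of 18S sets were added after the data were seen.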

Additional observations from a re-analysis of the deposited data

Results flagged for a closer look

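The gap between the array farthest out and the rest of its group was set against the whole range, for the 21 probe sets, the other named genes and the summed signals of the lists, 124 groups of values in all, of which chance marks about 1 in 20, or 6.2, and 7 were marked. Meis2 was marked on 2 probe sets: 1440091_at was low in mutant replicate 2, at a log2 signal of 10.05 against 10.63 to 10.80 in the other mutant arrays, and 1417129_a_at was low in wild-type replicate 4, at 11.34 where the remaining wild-type arrays had 11.69 to 11.82. Pknox2 was low in mutant replicate 4, at 7.98 against 8.16 to 8.22, and Tbx18 was low in wild-type replicate 3, at 9.28 against 9.54 to 9.64. The endothelial gene Cldn5 was low in mutant replicate 5, at 8.98 against 9.31 to 9.40. The summed signal of the stromal matrix list was high in wild-type replicate 1, at 14.48 on the log2 scale against 14.28 to 14.30, and that of the erythroid list was high in wild-type replicate 3, at 15.74 against 14.68 to 14.96.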

How the results depend on the processing

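No member and no probe set of a member was called under any other setting run. Without the dimmest 40% of genes Ntn4 was not tested, and 6 members were higher in the mutant. Between 6 and 8 of the 9 genes were higher in the mutant in each of the other settings. Foxd1, Meis1, Meis2, Pdgfra and Tnc kept a positive difference in all of them, with ranges on leaving out single arrays of 0.09 to 0.26, 0.16 to 0.33, 0.08 to 0.20, 0.32 to 0.41 and 0.23 to 0.43. Tcf21 changed sign with median centring (-0.01), array weights (-0.01) and within the high-18S arrays (-0.15), and ran from -0.07 to 0.08 on leaving out single arrays. Pdgfrb changed sign with the mean of its probe sets (0.08) and on probe set 1417148_at (0.21), and ran from -0.21 to 0.03. Dcn changed sign within the high-18S arrays (0.09) and ran from -0.20 to 0.01, and Ntn4 on probe set 1450512_at (-0.37), with 0.17 to 0.56 on leaving out single arrays. Outside the 9 genes, Wnt9b changed sign within the low-18S arrays (0.11), and Rab25 (-0.19) and Klf1 (-0.36), markers of bud and erythroid cells, within the high-18S arrays. Of all genes, 1 was called as reported, 6 without the dimmest 40% of genes, 10 with an intensity trend and robust moderation, and 0 with the mean of probe sets, either block, either 18S set alone or on dropping mutant replicate 2 and wild-type replicate 3, which had the brightest spiked-in controls, and 0 to 2 on leaving out single arrays (2 without wild-type replicate 5). The members higher in high-18S arrays at an unadjusted p under 0.05 numbered 6, against 3 with the mean of probe sets and 2 to 5 on leaving out single arrays. For dim genes such as Ntn4 the signal limits what can be read, and Ntn4 was left out with the dimmest genes. The cause of these shifts was not tested.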
